A study of Homo sapiens with 15 samples.

Results

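CTCF, MAZ and 8 genes of the cohesin complex and its loaders were followed through 15 RNA-seq libraries of MRC-5 cells. The 10 genes were taken by name, and each was found by its Ensembl identifier among the 57272 genes of the count table. All 10 were among the 15799 genes with enough counts to be tested. MRC-5 is an established line of human fetal lung fibroblasts with a limited number of divisions.

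CTCF is a zinc finger protein that binds DNA and acts as an insulator, and MAZ is another zinc finger protein with a role beside CTCF. Cohesin is a ring built from SMC1A, SMC3 and RAD21, to which either STAG1 or STAG2 is bound. NIPBL and MAU2 form the loader of the ring, and WAPL releases it from chromatin. The ring holds sister chromatids together in dividing cells, and it also extrudes chromatin loops that stop at bound CTCF.

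The 5 groups had 3 replicates each. Young cells at population doubling (PD) 30 carried either the empty lentiviral vector (pWPIR-GFP) with a control siRNA, the vector expressing the telomere protein TRF2 (pWPIR-GFP-TRF2) with the control siRNA, or the empty vector with an siRNA against LMNB1 (siLMNB1). Senescent cells with the control siRNA carried either the empty vector, at PD 71, or the TRF2 vector, at PD 75. Young cells were collected days after infection, whereas the senescent cells had been infected before they stopped dividing. Senescent cells with the TRF2 vector had expressed TRF2 from it for many divisions. The study calls the replicates of its young and senescent cells biological, but the labels do not say whether they were separate cultures, and the p-values measure the spread between these libraries. The labels mark the 6 senescent libraries as reanalysed from an earlier deposit, and the deposit and senescence therefore cannot be told apart. For replicate 3 of senescent cells carrying the empty vector, the label points to an earlier record numbered apart from those of the other 5.

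Total counts per library ranged from 26725885 to 43116046. TERF2, which encodes TRF2, was at 21.9 to 26.0 normalized CPM (counts scaled to a common library size) in the 9 libraries without the TRF2 vector and at 128 to 307 CPM in the 6 with it. LMNB1 fell by 4.48 on the log2 scale with siLMNB1 and by 3.54 in senescent cells with the empty vector. Summed fibroblast markers stood at 23062 to 42599 CPM, and summed blood cell markers at 3.84 CPM or less. Of these, CD14 had 0 to 9 counts in the young and 39 to 110 in the senescent libraries, while CD3E had 0 counts in all 15. Summed endothelial markers were at 31.0 to 35.9 CPM in young and 57.5 to 67.7 CPM in senescent cells with TRF2, and at 29.0 to 33.1 and 22.3 to 60.2 CPM with the empty vector. Most of these counts were of TEK, while CDH5 had at most 4 counts in a library and PECAM1 at most 12. The part of such cells in the results was not tested. Summed epithelial markers were at 14.9 CPM in replicate 1 of the young cells with the empty vector and at 8.50 CPM or less elsewhere. In 2 libraries several of the genes stood apart, senescent replicate 3 with the empty vector and young replicate 2 with TRF2. The slope of log2 counts against GC content, relative to the mean of the young cells with the empty vector, was -0.01 to 0.13 per 10 percentage points in the young libraries and 0.46 to 0.82 in the senescent ones. A second fit of each comparison therefore included offsets that take out each library's trend with GC content and exonic length.

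In young cells with the empty vector, RAD21 had the highest level per length, at 12.7 ± 0.08 CPM per kb of exon (SD, n = 3). WAPL followed at 11.6 ± 0.67, SMC1A at 10.4 ± 0.30, STAG1 at 9.35 ± 0.31 and STAG2 at 7.05 ± 0.09 CPM per kb. CTCF stood at 5.21 ± 0.11, SMC3 at 4.70 ± 0.09 and NIPBL at 3.63 ± 0.10 CPM per kb. The lowest were MAU2 at 3.07 ± 0.06 and MAZ at 2.20 ± 0.35 CPM per kb. The length used is that of all annotated exons together, so a gene with many rarely used exons has a lower value. It keeps bases shared with other genes, which are 58.4% of those of MAZ, 21.2% of STAG1 and 13.1% of CTCF. How reads from shared bases were counted is not known, so the rank of MAZ may depend on it. All other levels below are normalized CPM without division by length, and they are compared within a gene only.

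**Figure D1:**
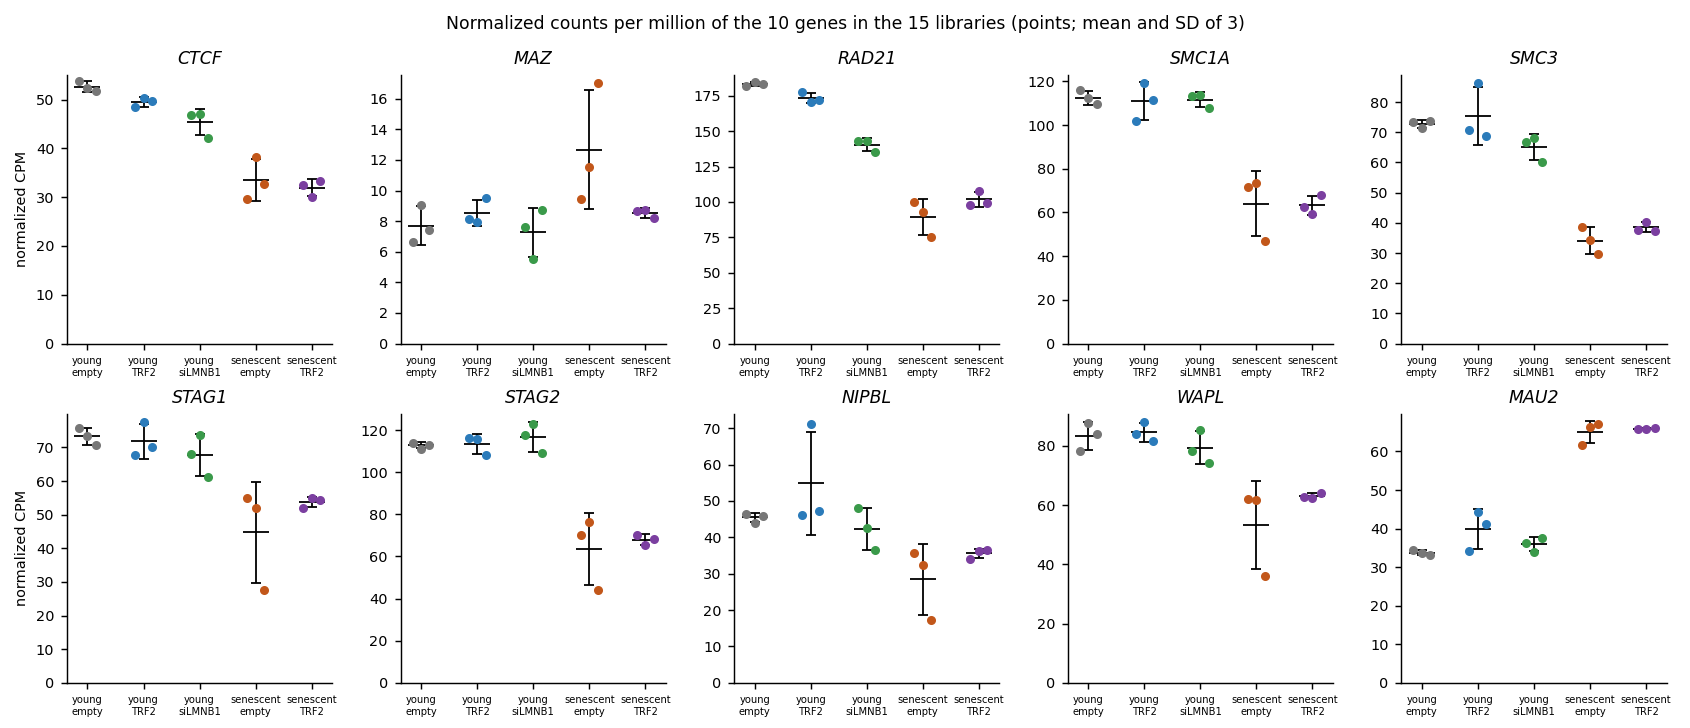
Normalized CPM (vertical axis, from 0) of each of the 10 genes in the 5 groups (horizontal axis), with 1 point per library and the mean and SD of 3. Both senescent groups lie below the young cells with the empty vector in 8 panels and above them in that of MAU2, while for MAZ only the senescent cells with the empty vector do, and those with TRF2, at 8.18 to 8.76 CPM, overlap the young cells. How many of all tested genes have such separate groups was not counted.

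The first question was how senescence changed these genes in cells carrying the empty vector. CTCF, the 3 subunits of the ring, STAG1, STAG2, NIPBL and WAPL were all lower in senescent cells, and MAZ and MAU2 were higher. The 8 lower genes stood at 46.8% to 63.9% of the young level, MAZ at 164% and MAU2 at 192%. A gene was called at an adjusted p below 0.05 in edgeR's quasi-likelihood test, without a fold change threshold, and all 10 genes were called. Of the 15799 tested genes, 31.9% were called lower and 32.7% higher in this comparison, so a call is common here. The median log2 fold change of the 10 genes was -0.70, against 0.02 over all tested genes. In bulk RNA, fewer cells of one type and less RNA per cell cannot be told apart. With the offsets, 5 genes were called lower and 1 higher (27.4% and 30.4% of all tested genes), and the median of the 10 genes was -0.31.

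CTCF was at 53.9, 52.4 and 51.8 CPM in the young libraries with the empty vector and at 29.6, 38.1 and 32.8 CPM in the senescent ones. All senescent libraries were below all young ones. The log2 fold change was -0.65 ± 0.09 (SE, adjusted p = 1.5e-05), and -0.55 ± 0.09 with the offsets (adjusted p = 7.8e-05). CTCF lay at chr16:67562467-67639177 on the plus strand of GRCh38, and its exons had a GC content of 46.2%. An antisense lncRNA that shares 13.1% of its exonic bases had at most 5 counts in a library.

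The bases just before the CTCF gene are shown with those of SMC3, the gene with the largest fall without the offsets, and MAU2, the gene with the largest rise, since the 3 moved in different degrees and directions. Each runs 5′ to 3′ on the plus strand, from RefSeq's promoter table (GRCh38.p14), and ends before the first annotated base of the gene. Capitals mark CCCTC, the letters that gave CTCF its name, and GGGAGGG, the core of the MAZ motif, on either strand, where the complement of GGGAGGG contains CCCTC. They are chr16:67562276-67562466, chr10:110567445-110567683 and chr19:19320579-19320828.
CTCF: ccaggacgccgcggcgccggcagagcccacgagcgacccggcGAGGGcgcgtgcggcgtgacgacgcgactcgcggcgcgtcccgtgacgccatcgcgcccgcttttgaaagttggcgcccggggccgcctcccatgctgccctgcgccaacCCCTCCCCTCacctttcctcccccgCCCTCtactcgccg
SMC3: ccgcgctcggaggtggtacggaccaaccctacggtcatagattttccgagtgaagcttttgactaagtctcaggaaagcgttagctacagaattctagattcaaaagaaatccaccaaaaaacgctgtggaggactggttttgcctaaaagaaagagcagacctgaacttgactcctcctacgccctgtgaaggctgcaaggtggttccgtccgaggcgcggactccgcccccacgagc
MAU2: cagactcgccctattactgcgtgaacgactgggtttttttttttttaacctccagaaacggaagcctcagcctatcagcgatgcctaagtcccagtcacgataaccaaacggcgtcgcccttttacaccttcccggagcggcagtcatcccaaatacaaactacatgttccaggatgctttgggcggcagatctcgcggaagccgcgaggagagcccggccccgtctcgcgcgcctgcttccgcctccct

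The stretch before CTCF held 4 copies of CCCTC and 1 of GGGAGGG, and those before SMC3 and MAU2 held 0 of either. Over whole windows of 300 bases around the start, 71.2% of 35116 promoters in that table held the former motif and 26.6% the latter. The whole window of SMC3, longer than its printed stretch, held 2 copies of the former and 1 of the latter. That of CTCF held 4 and 1, and that of MAU2 held 0 of either. Of the 10 genes, 9 had an entry, with 12 windows in all, and RAD21 had none. The former was in 9 of these windows and the latter in 6. The window of MAZ itself held 8 and 5 copies at a GC content of 88%, against a median of 58.7% over all promoters. Of all promoters, 12.3% held 4 or more copies of the former and 0.823% of the latter. These matches describe letters in a window and say nothing of binding.

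MAZ was at 6.62, 9.07 and 7.44 CPM in the young libraries with the empty vector and at 9.48, 11.5 and 17.0 CPM in the senescent ones. The groups did not overlap, although the lowest senescent library lay close to the highest young one. Its log2 fold change was 0.72 ± 0.20 (adjusted p = 0.0050), and with the offsets it was -0.31 ± 0.14 (adjusted p = 0.066), so that its direction turned. With exons of 65.9% GC, MAZ (chr16:29806106-29811164, plus strand) was the richest of the 10 genes in GC, and tested genes of 65 to 70% GC had a median log2 fold change of 1.17 in this comparison. Antisense genes covered a large part of its exons, among them the divergent transcript MVP-DT with 43.7% and an lncRNA with 14.6%. Whether strand was used in counting is not known, so the effect of these shared bases on the MAZ counts is not known either. MVP-DT had 30 to 69 counts in the young and 0 to 20 in the senescent libraries, while MAZ had 178 to 525 counts per library.

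RAD21, the subunit that closes the ring and is cut by separase, was at 182, 185 and 183 CPM in the young libraries and at 99.9, 93.0 and 74.9 CPM in the senescent libraries with the empty vector. It stood at 48.7% of the young level, with no overlap and a log2 fold change of -1.04 ± 0.09 (adjusted p = 7.4e-08). With the offsets the fall was smaller, at -0.38 ± 0.09 (adjusted p = 0.0015). The gene lies on chromosome 8 (116845934 to 116874776, minus strand), has exons of 36.5% GC and has 5.89% of its exonic bases in common with neighbours, chiefly UTP23 on the opposite strand.

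SMC1A, an ATPase of the ring, was at 116, 112 and 109 CPM in the young libraries and at 71.7, 73.6 and 47.0 CPM in the senescent ones. Its partner SMC3 was at 73.4, 71.3 and 73.9 CPM in the young libraries and at 38.5, 34.2 and 29.5 CPM in the senescent ones. Both had separate groups, with the lowest senescent value in replicate 3. The log2 fold change of SMC1A was -0.81 ± 0.13 (adjusted p = 4.4e-05), and the offsets left it at -0.80 ± 0.09 (adjusted p = 5.9e-07). SMC3 had the lowest value of the 10 genes, -1.10 ± 0.11 (adjusted p = 2.2e-07), and -0.46 ± 0.09 with the offsets (adjusted p = 5.1e-04). SMC1A (chrX:53374149-53422728, minus strand) has 47.9% GC in its exons and SMC3 (chr10:110567684-110606048, plus strand) 36.9%.

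STAG1 and STAG2 encode the alternative subunits that bind the ring to chromatin and to CTCF. STAG1 was at 75.7, 73.4 and 70.8 CPM in the young libraries and at 54.8, 52.0 and 27.6 CPM in the senescent ones. STAG2 was at 114, 111 and 113 CPM in the young libraries and at 70.2, 76.2 and 44.1 CPM in the senescent ones. No senescent library reached a young one, and replicate 3 was far below replicates 1 and 2 for both genes. STAG1 had a log2 fold change of -0.71 ± 0.17 (adjusted p = 0.0020), and of -0.19 ± 0.09 with the offsets, which was not called (adjusted p = 0.099). STAG2 had -0.83 ± 0.14 (adjusted p = 7.6e-05) and -0.31 ± 0.07 with the offsets (adjusted p = 6.0e-04). STAG1 (chr3:136336236-136752403, minus strand) shares 21.2% of its exonic bases with PCCB on the opposite strand, which had 986 to 2107 counts in a library. STAG2 (chrX:123960212-124422664, plus strand) shares 1.68% with other genes.

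NIPBL, the larger loader subunit, was at 46.4, 44.01 and 46.0 CPM in the young libraries and at 35.7, 32.4 and 17.2 CPM in the senescent ones. WAPL, which opens the ring, was at 78.3, 87.9 and 84.02 CPM in the young libraries and at 62.1, 61.7 and 36.2 CPM in the senescent ones. The groups of both genes were separate, again with replicate 3 of the senescent cells far below its fellow replicates. NIPBL had a log2 fold change of -0.68 ± 0.21 (adjusted p = 0.0099) and WAPL of -0.65 ± 0.15 (adjusted p = 0.0011). With the offsets these became -0.16 ± 0.12 (adjusted p = 0.27) and -0.19 ± 0.09 (adjusted p = 0.065), neither of them called. Neither NIPBL (chr5:36876769-37066413, plus strand) nor WAPL (chr10:86435256-86521792, minus strand) shares exonic bases with another gene.

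MAU2, the smaller loader subunit, rose while its partner NIPBL was lower. It was at 34.5, 33.7 and 33.2 CPM in the young libraries and at 61.6, 66.4 and 67.1 CPM in the senescent ones. The groups lay far apart, and the replicates within each lay close together. The log2 fold change was 0.94 ± 0.09 (adjusted p = 2.1e-07), and 0.38 ± 0.07 with the offsets (adjusted p = 2.2e-04). MAU2 (chr19:19320829-19358754, plus strand) has exons of 57.4% GC and no exonic overlap.

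**Figure D2:**
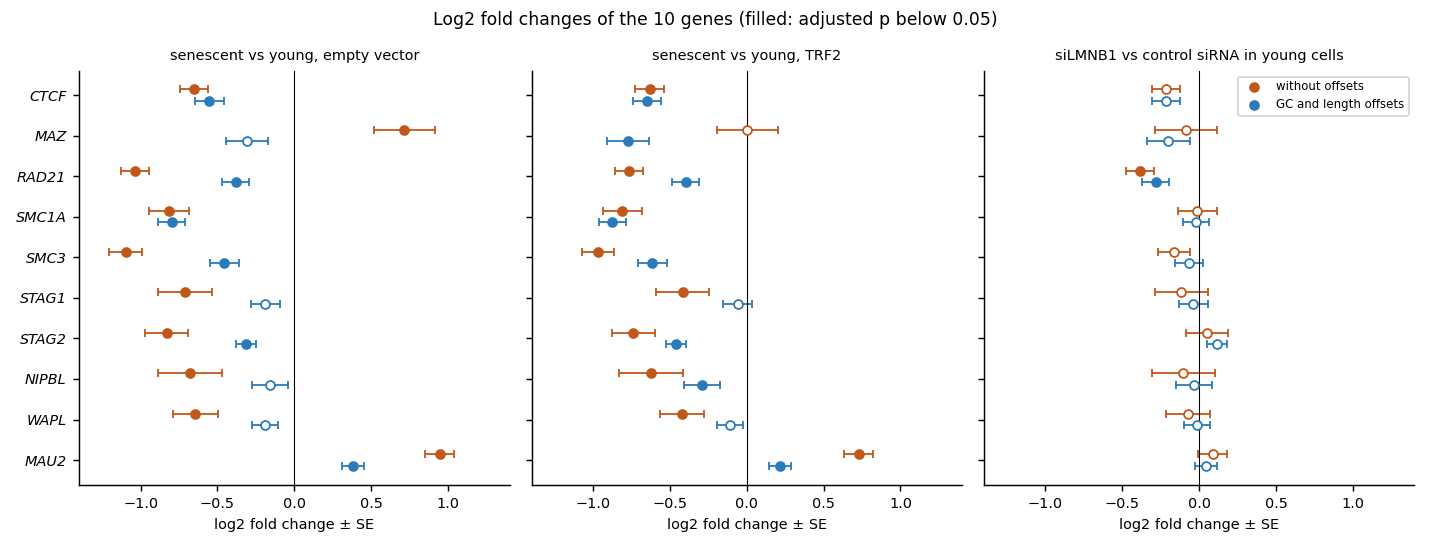
Log2 fold changes with their SE (horizontal axis) of the 10 genes in 3 comparisons, without offsets (orange) and with offsets for GC content and length (blue); filled points had an adjusted p below 0.05. In the panel of the empty vector, the value of SMC1A stays near -0.80 in both fits, while that of MAZ goes from 0.72 to -0.31.

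The 2 genes that rose without offsets, MAZ and MAU2, were the 2 richest in GC, and the 6 with exons of 36.5% to 40.5% GC were all lower. Tested genes of 35 to 40% GC had a median log2 fold change of -0.54 in this comparison, those of 45 to 50% GC of -0.04 and those of 55 to 60% GC of 0.58. CTCF and SMC1A, at 46.2% and 47.9% GC, lay below the lower quartile of genes of like GC content, which was -0.52, and RAD21 and SMC3 lay below that of their own class, which was -0.95. MAU2 lay inside the quartiles of its class (0.10 and 1.12), as did MAZ (0.68 and 1.79). Whether the trend with GC content comes from the libraries or from the cells was not tested.

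**Figure D3:**
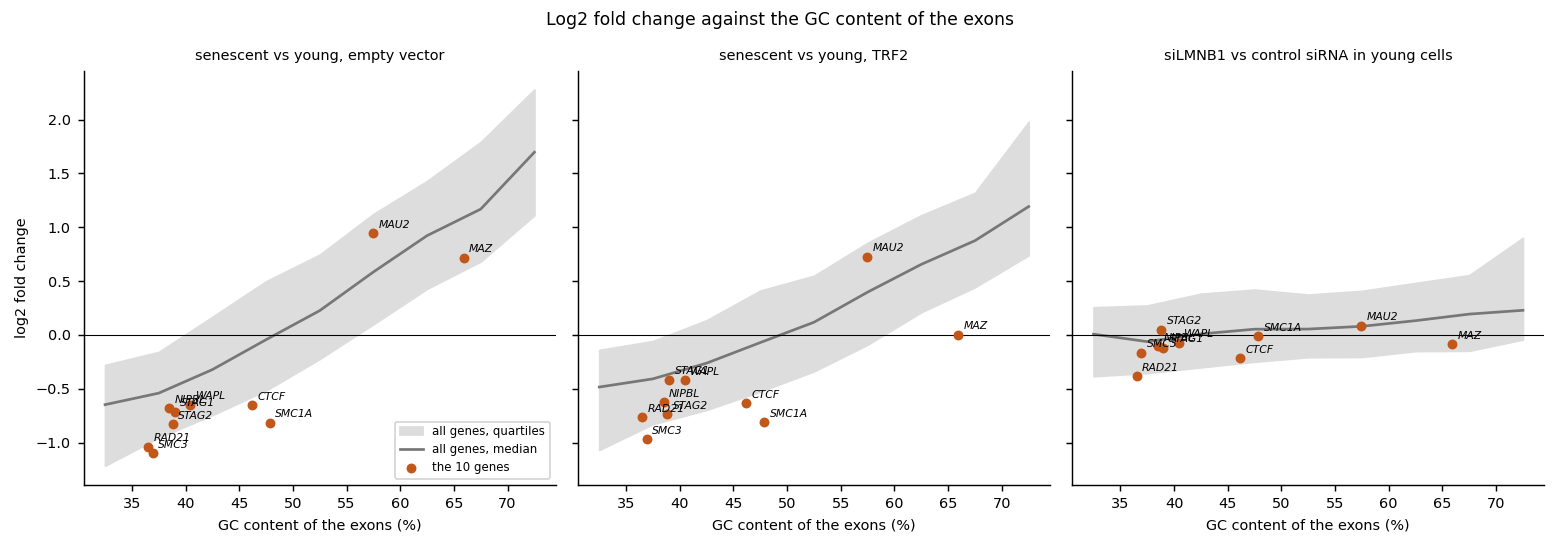
Log2 fold change (vertical axis) against the GC content of the exons (horizontal axis, %) for the 10 genes (points), with the median (line) and quartiles (band) of all tested genes in classes of 5 percentage points. Both senescence panels slope upward, from a median of -0.54 at 35 to 40% GC to 0.92 at 60 to 65% GC with the empty vector, and CTCF, SMC1A, RAD21 and SMC3 lie below their classes' quartiles there.

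Leaving out senescent replicate 3 kept all 10 calls, but MAZ fell to 0.42 (adjusted p = 0.040) and NIPBL moved to -0.44 (adjusted p = 0.012) on the log2 scale. With the offsets and without that library, an alternative chosen after seeing the data, the same 6 genes as with the offsets alone were called, with CTCF at -0.66, RAD21 at -0.52, SMC1A at -0.70, SMC3 at -0.62, STAG2 at -0.32 and MAU2 at 0.37 on the log2 scale. All 12 markers of dividing cells were lower in senescent cells with the empty vector, where MAZ and MAU2 were higher without the offsets. The summed level of the markers was 182 to 199 CPM against 951 to 1003 CPM in the young cells. MKI67 fell by 3.27, TOP2A by 2.92 and PCNA by 0.85 on the log2 scale. RAD21 and SMC3 fell further than PCNA and none of the 10 genes as far as TOP2A, and the part of cell division in their levels was not tested.

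The second comparison, between senescent and young cells that both expressed TRF2, used the other 6 libraries with the control siRNA. The same 8 genes were lower and MAU2 was higher, and MAZ was level. Of all tested genes, 30.1% were called lower and 28.2% higher, and the median log2 fold change was -0.63 over the 10 genes and -0.02 over all genes. CTCF was at 48.5, 50.4 and 49.7 CPM in the young libraries and at 32.6, 30.0 and 33.3 CPM in the senescent ones, with a log2 fold change of -0.63 ± 0.09 (adjusted p = 2.3e-05). RAD21 went from 177, 170 and 172 CPM to 98.2, 108 and 99.4 CPM, or by -0.77 ± 0.09 on the log2 scale (adjusted p = 2.5e-06). In both genes the groups were separate.

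SMC3 was at 70.8, 86.3 and 68.7 CPM in the young and at 37.8, 40.4 and 37.3 CPM in the senescent libraries with TRF2, a log2 fold change of -0.97 ± 0.11 (adjusted p = 9.4e-07). SMC1A had -0.81 ± 0.13 (adjusted p = 5.2e-05) and STAG2 -0.74 ± 0.14 (adjusted p = 2.5e-04). MAU2 was at 34.1, 44.2 and 41.1 CPM in the young and at 65.9, 65.8 and 66.0 CPM in the senescent libraries, and rose by 0.73 ± 0.09 on the log2 scale (adjusted p = 4.2e-06). MAZ, at 8.12, 7.92 and 9.52 CPM in the young and 8.67, 8.76 and 8.18 CPM in the senescent libraries, had overlapping groups and a log2 fold change of 0.00 (95% interval -0.44 to 0.44).

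NIPBL stood at 46.2, 71.2 and 47.1 CPM in the young libraries with TRF2, where replicate 2 was far above the others, and at 34.2, 36.3 and 36.4 CPM in the senescent ones. Its log2 fold change was -0.62 ± 0.21 (adjusted p = 0.017), and without replicate 2 of the young cells it was -0.39 and not called (adjusted p = 0.12). WAPL had -0.42 ± 0.15 (adjusted p = 0.020) and also lost its call without that library (-0.40, adjusted p = 0.058) or without replicate 1 of the senescent cells (adjusted p = 0.053), as did NIPBL there (adjusted p = 0.053). STAG1 had -0.42 ± 0.17 (adjusted p = 0.048), a call lost under 11 of 14 alternatives (adjusted p from 9.1e-05 to 0.83). In that young replicate TERF2 was at 307 CPM, against 128 and 149 CPM in replicates 1 and 3.

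With the offsets, 7 genes were called lower and 1 higher, against 27.6% and 28% of all tested genes. MAZ was now called lower, at -0.77 ± 0.14 (adjusted p = 1.4e-04). CTCF, at -0.65 ± 0.09, SMC1A, at -0.87 ± 0.09, SMC3, at -0.61 ± 0.09, RAD21, at -0.40 ± 0.09, and STAG2, at -0.46 ± 0.07 on the log2 scale, remained lower, and MAU2 remained higher at 0.21 ± 0.07 (adjusted p = 0.017). NIPBL was at -0.29 ± 0.12 (adjusted p = 0.043), a call lost when young replicate 2 was also left out (-0.12, adjusted p = 0.35), an alternative chosen after seeing the data that left 6 genes lower. STAG1 at -0.06 ± 0.09 and WAPL at -0.11 ± 0.08 were not called. The summed markers of dividing cells were at 799 to 862 CPM in the young and 125 to 145 CPM in the senescent libraries with TRF2.

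The study's methods asked for a log2 change of 1 or more, up or down, at senescence. The study applied this to DESeq2 results and kept protein-coding genes and pseudogenes, so the test and gene set differ from those here. Put on the edgeR calls, the threshold left RAD21 and SMC3 with the empty vector. There 11.8% of all tested genes were called and at least that much lower. With TRF2, 0 of the 10 genes remained, and the share was 12.1%.

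TRF2 itself was compared with the empty vector at either age, and the interaction asked whether the effect of senescence differed between the vectors. Senescent cells with TRF2 were at PD 75 against 71 and had expressed it for many divisions. Young cells had expressed it for days, at the same PD as their controls. Among senescent cells and in the interaction, TRF2, PD and the length of expression therefore cannot be told apart. In young cells 0 of the 10 genes were called by edgeR, where 0.0253% of all tested genes were called lower and 0.152% higher. At an unadjusted p below 0.05, 1 gene remained, MAU2, at 0.24 ± 0.09 on the log2 scale (adjusted p = 0.40). NIPBL was at 0.27 ± 0.21 (adjusted p = 0.74), a value that rested on replicate 2 and was 0.04 without it. DESeq2 also called 0 genes.

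In senescent cells 6.41% of all tested genes were lower and 4.87% higher with TRF2, and 0 of the 10 genes were called. MAZ had the only unadjusted p below 0.05, at 9.48, 11.5 and 17.0 CPM with the empty vector and 8.67, 8.76 and 8.18 CPM with TRF2. These groups did not overlap, and the log2 fold change was -0.57 ± 0.20 (adjusted p = 0.073). Over the alternatives its adjusted p ran from 0.0062 to 0.32, and it was called by DESeq2 (adjusted p = 0.042), without a filter on low counts, and without senescent replicate 1 of the empty vector. Without that library RAD21 was called as well. The offsets gave MAZ a smaller difference of -0.38 ± 0.14 (adjusted p = 0.070), and without senescent replicate 3 of the empty vector it was -0.30 (adjusted p = 0.32).

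For the interaction, 1.13% of all tested genes were called and 0 of the 10 genes by edgeR or DESeq2. Only MAZ had an unadjusted p below 0.05, at -0.71 ± 0.28 (log2, adjusted p = 0.23, 95% interval -1.34 to -0.09). Without senescent replicate 1 of the empty vector this difference was -0.88 and called (adjusted p = 0.034), without senescent replicate 3 it was -0.42 (adjusted p = 0.38), and with the offsets -0.46 ± 0.19 (adjusted p = 0.22). Over all alternatives its adjusted p ran from 0.034 to 0.40. RAD21 was at 0.27 ± 0.13 (adjusted p = 0.32) and at -0.016 with the offsets. For SMC1A the interval was -0.40 to 0.41 and for CTCF -0.27 to 0.31, so differences of moderate size remain possible.

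The last comparison set young cells with siLMNB1 against young cells with the control siRNA, both with the empty vector, and so shares its control libraries with the first comparison. RAD21 was the only one of the 10 genes called, and it fell. It was at 182, 185 and 183 CPM with the control siRNA and at 143, 143 and 135 CPM with siLMNB1, with separate groups and a log2 fold change of -0.38 ± 0.09 (adjusted p = 0.0042). With the offsets it was -0.28 ± 0.09 (adjusted p = 0.018). Of all tested genes, 16.1% were called lower and 16.4% higher.

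CTCF was at 46.9, 47.0 and 42.2 CPM with siLMNB1, all below the 3 controls, but its log2 fold change of -0.22 ± 0.09 was not called (adjusted p = 0.086, 95% interval -0.42 to -0.01). It was called by DESeq2 (adjusted p = 0.038) and in a fit of the 6 libraries alone (adjusted p = 0.0029). SMC3, at 66.9, 68.1 and 60.2 CPM, was also below all controls, at -0.16 ± 0.11 (adjusted p = 0.26), and was called in the fit of the 6 libraries alone (adjusted p = 0.012). The other 7 genes had log2 fold changes between -0.12 and 0.09 and overlapped the controls. Their 95% intervals were widest for NIPBL, -0.56 to 0.36, and MAZ, -0.53 to 0.37, and narrowest for MAU2, -0.12 to 0.29. SMC1A was at 113, 114 and 108 CPM with siLMNB1, with an interval of -0.30 to 0.27. The threshold of the study's methods, at least 0.58 on the log2 scale, left 0 of the 10 genes when put on the edgeR calls. With siLMNB1, 11 of 12 markers of dividing cells were lower, and their summed level was 534 to 552 CPM.

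Over the 5 groups, the level of CTCF ran from young cells with the empty vector, at 52.7 ± 1.10 CPM, through those with TRF2, at 49.5 ± 0.95, and siLMNB1, at 45.4 ± 2.74, to the senescent cells with the empty vector, at 33.5 ± 4.34, and TRF2, at 32.0 ± 1.75 CPM (SD, n = 3). The libraries of the 2 senescent groups overlapped. RAD21 ran in the order 183.2 ± 1.16, 173 ± 3.61, 140.4 ± 4.60, 102 ± 5.39 in senescent cells with TRF2 and 89.3 ± 12.9 CPM in those with the empty vector, and again the senescent groups overlapped. For MAZ, 4 groups lay between 7.27 ± 1.62 and 8.53 ± 0.31 CPM and overlapped, and senescent cells carrying the empty vector were highest at 12.7 ± 3.89 CPM, though their lowest library (9.48 CPM) was level with the highest of young cells with TRF2 (9.52 CPM).

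The balance between the 2 STAG subunits was followed as the log2 ratio of STAG2 to STAG1 in each library. It was 0.59, 0.60 and 0.67 in young cells with the empty vector and 0.79, 0.74 and 0.83 with siLMNB1, above all controls by 0.17 (p = 0.1, two-sided exact permutation test). In senescent cells with TRF2 it was 0.43, 0.25 and 0.33, below the young cells with TRF2 at 0.78, 0.58 and 0.62 by 0.32 (p = 0.1, two-sided exact permutation test). With 3 libraries against 3, 0.1 is the smallest p this test can give, and over the 10 comparisons of ratios the adjusted p was 0.5 for both. In the other 3 comparisons the libraries overlapped, and at senescence with the empty vector the difference was -0.09. The log2 ratio of NIPBL to WAPL overlapped in all 5 comparisons, with differences from -0.17 to 0.22. The exonic bases that STAG1 shares with PCCB, named above, could affect the STAG1 counts, and the direction of such an effect was not tested.

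**Figure D4:**
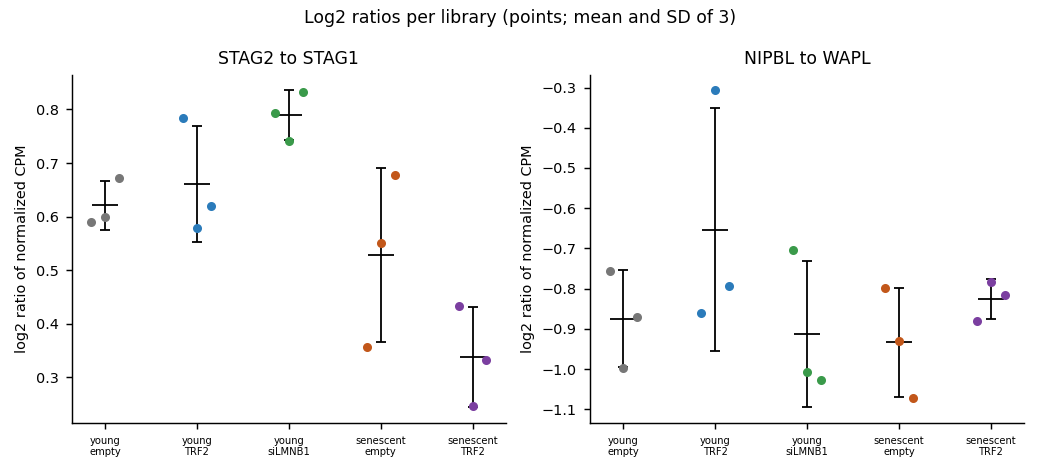
Log2 ratio of normalized CPM (vertical axis) of STAG2 to STAG1 (left) and of NIPBL to WAPL (right) in each library of the 5 groups, with the mean and SD of 3. The STAG2 to STAG1 ratio is 0.74 to 0.83 with siLMNB1 and 0.25 to 0.43 in senescent cells with TRF2, and NIPBL to WAPL overlaps in all comparisons.

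How alike the 10 genes behaved was measured by the root mean square difference of their centred log2 levels over the 15 libraries. The closest pair was STAG1 and WAPL, at 0.07, followed by SMC1A and STAG2, at 0.08, and RAD21 and SMC3, at 0.14. CTCF was closest to RAD21, at 0.19. The loader subunits NIPBL and MAU2 differed by 0.76, and MAZ was nearest to MAU2, at 0.35. Among 13184 protein-coding genes, the 3 most like CTCF were NSMAF, at 0.075, PSMD12 and PSMD11, both at 0.085. For RAD21 they were METTL15, at 0.052, PPP1CC, at 0.063, and DHX9, at 0.064, and for MAZ they were POP7, DUS1L and SMTN, at 0.151 to 0.154. The median gene was at 0.48 from CTCF, 0.56 from RAD21 and 0.54 from MAZ. These measures share the libraries and the trend with GC content.

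Other genes of the pathway were taken from lists of complexes and factors. The shares to read their counts against at senescence with the empty vector are the 31.9% lower and 32.7% higher over all tested genes. With siLMNB1 these shares are 16.1% lower and 16.4% higher. Of 9 regulators of cohesin, 9 were lower at senescence with the empty vector, with a median log2 fold change of -1.90. SGO1, which protects cohesin at centromeres, had the lowest value at -3.69 ± 0.23 (adjusted p = 9.2e-10), and the acetyltransferase ESCO2 fell by 2.99. PDS5A, PDS5B and ESCO1 were at -0.57, -0.80 and -0.69, and none of these 3 was called with the offsets, which left 6. With siLMNB1, 6 of the 9 were lower, among them ESPL1, the separase that cuts RAD21, at -1.26 ± 0.15 (adjusted p = 9.9e-06), and the establishment factor CDCA5 at -1.15 ± 0.16 (adjusted p = 6.5e-05). PTTG1, SGO1, ESCO2 and ESPL1 act in dividing cells, whose markers moved in the same comparisons.

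Condensin, the related SMC complex that compacts mitotic chromosomes, had 8 of 8 tested subunits lower in senescent cells, with and without the offsets. NCAPG had the lowest value, at -3.18 ± 0.13 (adjusted p = 6.6e-12), and NCAPH2 the smallest fall, at -0.34 ± 0.14 (adjusted p = 0.038) with overlapping groups. The median was -1.88, against -0.70 for the 10 genes. With siLMNB1, 7 of 8 were lower, against 16.1% of all tested genes, and NCAPG was at -1.21 ± 0.12 (adjusted p = 1.2e-06). Of the 6 genes of the SMC5/6 complex, which acts in DNA repair, 3 were lower and 1 higher in senescent cells with the empty vector, near the shares over all tested genes. SMC6 was lowest at -0.77 ± 0.11 (adjusted p = 2.3e-05), and NSMCE1 higher at 0.40 ± 0.13 (adjusted p = 0.014). NSMCE1 was at 36.0, 37.6 and 34.8 CPM in the young and 41.5, 40.001 and 61.3 CPM in the senescent libraries, so that most of its rise came from senescent replicate 3. With the offsets only NSMCE1 and NSMCE3 were called, both higher.

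**Figure D5:**
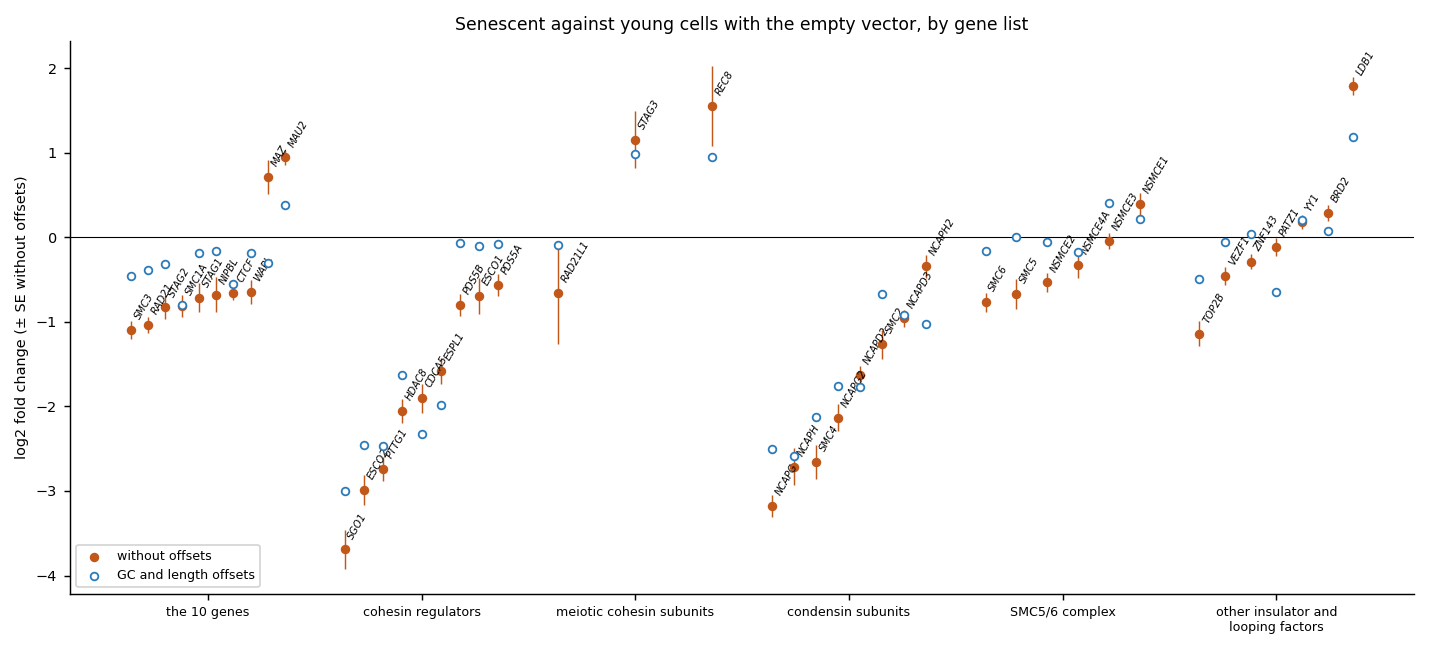
Log2 fold change at senescence with the empty vector (vertical axis) of each tested gene, by list (horizontal axis), without offsets (filled, with SE) and with offsets for GC content and length (open). All 8 condensin subunits and 9 cohesin regulators lie below 0 in both fits, and MAU2, STAG3, REC8 and LDB1 are among those above 0 in both.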

How the data were processed

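RNA of 15 libraries was measured by RNA-seq. The authors used Trimmomatic for trimming and STAR for mapping to GRCh38, and the counts per gene they deposited are raw. The annotation release and strand setting are not given in the sources used here. After filterByExpr, edgeR 4.0.16 (R 4.3.3) fitted 1 mean for each of 5 groups to TMM-scaled counts. The two-sided quasi-likelihood test was adjusted by Benjamini-Hochberg across 15799 genes, and an adjusted p below 0.05 was a call. Standard errors came from the F statistic, and intervals use 10 residual degrees of freedom, fewer than the test itself, and are therefore wider. Offsets came from a loess curve (span 0.3, prior count 1) on GC content and length in each library. Genes were named and placed with GENCODE 44, which lacks 324 genes of the table. Ratios were compared by a two-sided exact permutation test. DESeq2 1.42.0, another normalization (RLE), no filter, only the libraries compared, a replicate block, non-overlapping genes, a fold change threshold and each library left out in turn were tried. Python 3.11.15 with pandas and matplotlib drew the figures. The steps were tested on simulated data. The genes and lists were chosen with earlier results of these data known. Named were the 10 genes, the largest rise and fall called in each related list, and every gene of a list with 5 or fewer tested or called. Also named were MKI67, PCNA and TOP2A, LMNB1, CDKN1A, CDKN2A and TERF2, and the 3 protein-coding genes most like CTCF, MAZ and RAD21. PDS5A, PDS5B, ESCO1, ESCO2, CDCA5, ESPL1, PTTG1, HDAC8, NCAPH2 and the antisense partners were named after their values were seen. Precision is limited by 3 libraries a group, at 26725885 to 43116046 counts each.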

Additional observations from a re-analysis of the deposited data

Results flagged for a closer look

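None of the 10 genes had a called difference between the effects of senescence with TRF2 and with the empty vector. In the related lists 2 genes did, by the test of the interaction itself. There TRF2 cannot be told apart from the later PD and longer expression of the senescent cells with TRF2. NCAPG, a condensin subunit, fell further with TRF2, with an interaction of -0.99 on the log2 scale (SE 0.19, adjusted p = 0.027, and 0.0049 with the offsets). It was at 34.7, 33.0 and 33.8 CPM in young and 3.90, 4.0 and 3.30 CPM in senescent cells with the empty vector, and at 24.4, 26.6 and 25.5 CPM and 1.24, 1.15 and 1.82 CPM with TRF2. ESPL1, which encodes separase, also fell further, at -0.98 (SE 0.22, adjusted p = 0.043, and 0.024 with the offsets). Its senescent libraries were at 3.90, 5.41 and 4.96 CPM with the empty vector and at 2.01, 2.36 and 2.45 CPM with TRF2. TOP2A, a marker of dividing cells, had an interaction of -0.79 (adjusted p = 0.042). The part of cell division in these 2 results was not tested. Single libraries within the groups of 3 were not tested as outliers.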

How the results depend on the processing

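Refitted log2 fold changes were tallied for all 10 genes at senescence with either vector and with siLMNB1. For TRF2 in young cells only MAU2 and NIPBL were tallied, for TRF2 in senescent cells only MAZ, and for the interaction MAZ and RAD21. Of these values, 450 kept direction and side of the threshold, 28 lost and 7 gained a call, and 16 changed sign. The offsets left 6 of the 10 calls at senescence with the empty vector, and also 6 with the replicate block in addition or without replicate 3 of the senescent cells. MAZ then turned to -0.31, -0.31 and -0.34, and in cells with TRF2 to -0.77, -0.77 and -0.80 (the last without replicate 2 of the young cells). The interaction of RAD21 turned to -0.016 and, with the block, -0.0086. The fold change threshold left 2 genes with the empty vector and 0 with TRF2 and siLMNB1. Genes without exonic overlap gave 4, 4 and 0 calls, since only 4 of the genes were then tested. For siLMNB1, DESeq2 called 2 genes and the fit of the compared libraries 3. For TRF2 in senescent cells, DESeq2 and the fit without filter called 1. Leaving out each library gave 0 to 2 calls there, 0 to 1 for the interaction, 6 to 8 for senescence with TRF2, and turned MAZ with TRF2 (-0.052 to 0.085) and with siLMNB1 (-0.24 to 0.085) and SMC1A with siLMNB1 (-0.028 to 0.013). The ratio of STAG2 to STAG1 ran from -0.021 to 0.082 for TRF2 in young cells. NIPBL to WAPL turned to 0.029 with the offsets, and ran from -0.13 to 0.0099 for senescence with the empty vector, -0.28 to 0.0010 with TRF2 and -0.14 to 0.021 with siLMNB1. The cause was not tested. Replicate numbers did not pair the libraries (correlations from -0.09 to 0.06), and with the replicate block the calls stayed at 10, 9, 1, 0, 0 and 0.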

Other observations

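Of the 4 cohesin subunits known from meiosis, 3 had enough counts to be tested, and SMC1B had 8 or fewer counts in a library. STAG3 had 15 to 16 counts in the young and 28 to 37 in the senescent libraries with the empty vector, and rose by 1.16 ± 0.33 on the log2 scale (adjusted p = 0.0065, and 0.018 with the offsets). It also rose with TRF2, by 1.30 ± 0.31 (adjusted p = 0.0018). REC8 had 11 to 13 counts in the young and 11, 31 and 64 counts in the senescent libraries with the empty vector, so that the groups overlapped in CPM, and its rise of 1.55 ± 0.48 (adjusted p = 0.0094) was not called with the offsets (adjusted p = 0.069). RAD21L1 was not called with the empty vector (-0.66 ± 0.60, adjusted p = 0.34) and was lower with TRF2 (adjusted p = 0.0069), where the young libraries had 18, 6 and 8 and the senescent ones 1, 3 and 0 counts.

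Among other factors linked with insulation or looping, CTCFL, a paralog of CTCF that is expressed in testis, had 0 counts in all 15 libraries. Of the 7 tested, 2 were higher and 3 lower in senescent cells with the empty vector, which is near the 32.7% and 31.9% over all tested genes. LDB1, a looping cofactor that acts at enhancers, was at 60.3, 54.5 and 57.3 CPM in the young and 171, 184 and 239 CPM in the senescent libraries. It rose by 1.79 ± 0.11 (adjusted p = 8.1e-10), by 1.56 ± 0.11 in cells with TRF2 (adjusted p = 3.7e-09) and by 0.32 ± 0.11 with siLMNB1 (adjusted p = 0.030). BRD2 was higher at 0.29 ± 0.10 (adjusted p = 0.017), and with the offsets it was not called (adjusted p = 0.47). TOP2B, a topoisomerase found at loop anchors, was lower at -1.14 ± 0.15 (adjusted p = 4.9e-06). VEZF1 and ZNF143 were at -0.46 and -0.29 and not called with the offsets. With the offsets 2 of the 7 were called higher and 2 lower, among them factors not called in the fit without offsets. Over all tested genes these shares were 30.4% and 27.4%.

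CDKN1A and CDKN2A, inhibitors of the cell cycle linked with senescence, rose by 0.94 ± 0.09 (adjusted p = 1.2e-07) and 1.20 ± 0.16 (adjusted p = 9.7e-06) in senescent cells with the empty vector.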
